A study of Mus musculus with 12 samples.

Results

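The lineage factors described here are 9 transcription factor genes known for building and maintaining the macrophage state: Spi1, Runx1, Cebpa, Cebpb, Cebpd, Klf2, Klf4, Klf6 and Maf. They were chosen by name, out of 24120 genes with a symbol on the array, and their 11 probes were found by gene name or current alias. RNA came from RAW264.7 cells, an established mouse macrophage line derived from a tumour induced by Abelson leukaemia virus, and each of the 12 samples was hybridised to a 1-colour array. Cells of the groups HS and HS+LPS received 40 mM NaCl on top of what the medium holds, cells of NS+LPS and HS+LPS received 10 ng/ml LPS, and NS cells received neither. Every group was sampled at 24 h and has 3 arrays. The labels do not spell out the abbreviations, and NS was read as the condition without added NaCl and HS as the one with it. Nothing in them says that replicates were separate cultures, and p-values therefore reflect only how these arrays varied within a group, possibly for technical reasons. LPS, lipopolysaccharide, is a bacterial outer membrane component that macrophages sense through TLR4.

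PU.1, the product of Spi1, opens chromatin at macrophage enhancers, where C/EBP and RUNX1 proteins bind beside it and together set up genes such as the receptor of macrophage colony stimulating factor. C/EBPα is tied to the making of myeloid cells, while C/EBPβ and C/EBPδ are known to take over much of C/EBP binding in inflammation. Of the Krüppel-like factors, KLF2 and KLF4 are known to restrain inflammatory activation of macrophages and KLF6 to favour it, and c-MAF belongs to the mature and anti-inflammatory state.

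Macrophage identity was readily seen: 10 of 10 macrophage marker genes, Csf1r, Adgre1, Itgam and Cd68 among them, were well above background on all 12 arrays. The summed relative signal of these markers lay between 967 and 1010 in NS, 936 and 1030 in HS, 1000 and 1050 in NS+LPS and 1170 and 1220 in HS+LPS. Of the markers of other cells, several were not above background on any array, among them all 4 epithelial markers, Ms4a1 and Pax5 of B cells, Cd3g of T cells, Ly6g and Mpo of neutrophils and Alas2 of erythroid cells. Single genes of those other lists were present throughout (Cd3e, Elane, Tpsb2, Kdr, Epor). Others were above background on some arrays: Cd79a of B cells, Cd3d of T cells, Cdh5 of endothelial cells, and Col1a1, Col1a2 and Dcn of fibroblasts. Camp of neutrophils was so on 0 of 3 NS and 3 of 3 NS+LPS arrays and at least 3.11-fold higher with LPS (limma adjusted p = 2.25e-05). Dcn was so on 2 of 3 NS and 0 of 3 HS arrays and was called lower with NaCl alone (limma adjusted p = 0.0479). The erythroid sum, which Epor carries, ran from 0.243 to 0.257 in NS and from 0.77 to 0.987 in HS+LPS. The largest sum of these other lists was the endothelial one, from 2.46 to 3.04 in NS and from 3.08 to 3.33 in HS+LPS. Next was the T cell sum, from 1.28 to 1.37 in NS and from 1.04 to 1.13 in HS+LPS. The part of these shifts in the results was not tested. Replicate arrays correlated at 0.995 to 0.998. The HS+LPS arrays were dimmer before scaling (75th percentile 428 ± 15.3 intensity units, SD, n = 3, against 628 to 725 for the other group means) and had 44.2% of probes well above background against 47.8 to 50.1%. They were also hybridised on a slide of their own and scanned on a later day, so the slide and scan day cannot be told apart from the group in any comparison that includes HS+LPS.

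The upstream sequence of 4 lineage factors is shown first, because the Krüppel-like factors each fell with added NaCl and Cebpa had the largest response to LPS without added NaCl when a gene is read from its brightest probe. RefSeq's table (GRCm38.p6) holds promoters for 6 of the 9, not for Spi1, Cebpd and Maf. It was searched for GAGGAA (ETS and PU.1), TTGCNNAA (C/EBP), MEF2 (CTA and TAG with any 4 bases between), TGTGGT (RUNX), TGGAAA (the core shared by NFAT and NFAT5 sites), TGANTCA (AP-1), TGACG (CRE), and NF-kB (GGG and CC with 5 bases between, of which the third and the fourth are T). The search also took in the promoter elements CCAAT and, as a TATA box, TATAAA, and the E-box CACGTG. Both strands were searched, and capitals in the lines that follow mark matches to these motifs. Matches that overlap run together in 1 stretch of capitals, as CCAAT and the reverse of TGGAAA do in Klf6. CACCC and the GC box GGGCGG were searched too and left in lower case. Each line holds the 250 bases before the annotated start, 5′ to 3′ on the strand of the gene.
Klf2 (chr8:72318812-72319061, plus strand): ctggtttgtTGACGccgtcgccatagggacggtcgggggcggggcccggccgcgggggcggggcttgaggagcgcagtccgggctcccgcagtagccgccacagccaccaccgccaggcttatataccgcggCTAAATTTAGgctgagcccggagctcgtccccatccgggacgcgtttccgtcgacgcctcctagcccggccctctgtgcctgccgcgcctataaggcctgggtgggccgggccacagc
Klf4 (chr4:55532476-55532725, minus strand): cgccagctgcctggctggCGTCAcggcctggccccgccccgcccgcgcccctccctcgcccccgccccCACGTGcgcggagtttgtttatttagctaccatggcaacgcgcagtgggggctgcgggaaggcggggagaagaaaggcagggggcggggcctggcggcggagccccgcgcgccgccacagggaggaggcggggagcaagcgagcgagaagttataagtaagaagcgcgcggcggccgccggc
Klf6 (chr13:5861239-5861488, plus strand): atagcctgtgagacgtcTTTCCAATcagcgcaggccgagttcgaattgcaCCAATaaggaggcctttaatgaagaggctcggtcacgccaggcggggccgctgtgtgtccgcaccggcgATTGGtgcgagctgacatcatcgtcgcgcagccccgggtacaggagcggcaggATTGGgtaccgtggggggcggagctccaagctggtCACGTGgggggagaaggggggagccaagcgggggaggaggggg
Cebpa (chr7:35119043-35119292, plus strand): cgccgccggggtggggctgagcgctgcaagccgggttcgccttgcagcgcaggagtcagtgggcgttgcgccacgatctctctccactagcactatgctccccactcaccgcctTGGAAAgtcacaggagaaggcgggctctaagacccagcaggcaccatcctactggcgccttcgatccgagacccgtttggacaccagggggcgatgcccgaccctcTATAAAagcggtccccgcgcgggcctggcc
The windows were rich in G and C, at 71.2, 74, 64.8 and 66.4% for Klf2, Klf4, Klf6 and Cebpa, against a median of 52.4% over all windows searched. None of these 4 held the PU.1, C/EBP, RUNX, AP-1 or NF-kB letters given above, which says only that these letters are not in these windows. The Klf2 window held the MEF2 letters, found in 3.2% of all 32851 windows, and the CRE letters (17.8%), which the Klf4 window held too. An E-box, in 6.02% of all windows, stood in Klf4 and in Klf6. Klf6 carried CCAAT 4 times (33.8% of windows hold it at least once) and, like Cebpa, the TGGAAA core (18.6%). Cebpa alone of these 4 held the exact letters TATAAA (12.4%), and variants of them were not searched. GC boxes were present in each Krüppel-like factor window and absent from that of Cebpa, against 32.7% of all windows. Of the windows not shown, that of Cebpb held GC boxes too and those of Runx1 did not. The CRE letters also stood in Cebpb, and CCAAT and TGGAAA in both windows of Runx1. An E-box stood in a Runx1 window, and the ETS and PU.1 letters in the other. CACCC, in 52% of all windows, was found in Klf2 and Cebpa among the 4 shown. A match is a description of letters and not a site shown to be used.

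Levels are given as relative signal, the processed intensity divided by the array's 75th percentile, so that 1 is the level of that percentile itself; levels of different probes are not comparable. Differences are on the log2 scale with their standard error (SE) from limma's moderated test over all 12 arrays, and a gene was called at a Benjamini-Hochberg adjusted p under 0.05 over 13834 genes. Of the lineage factors 8 passed the filter on dim probes, each well above background on all 12 arrays, and Maf did not. With added NaCl and no LPS, 0 of these 8 were called higher and 5 lower, where 37.1% of all genes tested were called (18.3% higher and 18.9% lower). With NaCl on top of LPS the counts were 3 higher and 4 lower (background 57.5% called, 26.2% higher, 31.4% lower). LPS without added NaCl moved 8 of 8, 4 up and 4 down (background 63.8%, 28.7% higher, 35.2% lower), and LPS with added NaCl moved 4 up and 2 down (background 72.3%, 30.5% higher, 41.8% lower). The arrays of the groups compared did not overlap for 6, 8, 8 and 6 of the 8 in these comparisons, in that order, where this held for 50.5, 64.2, 69.6 and 74.9% of all genes. The median log2 difference of the 8 was -0.26, -0.20, -0.0035 and 0.16 in these 4 comparisons, beside 0.017, -0.043, -0.034 and -0.11 over all genes. Each group enters more than 1 comparison, so these values are not independent of each other.

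**Figure D1:**
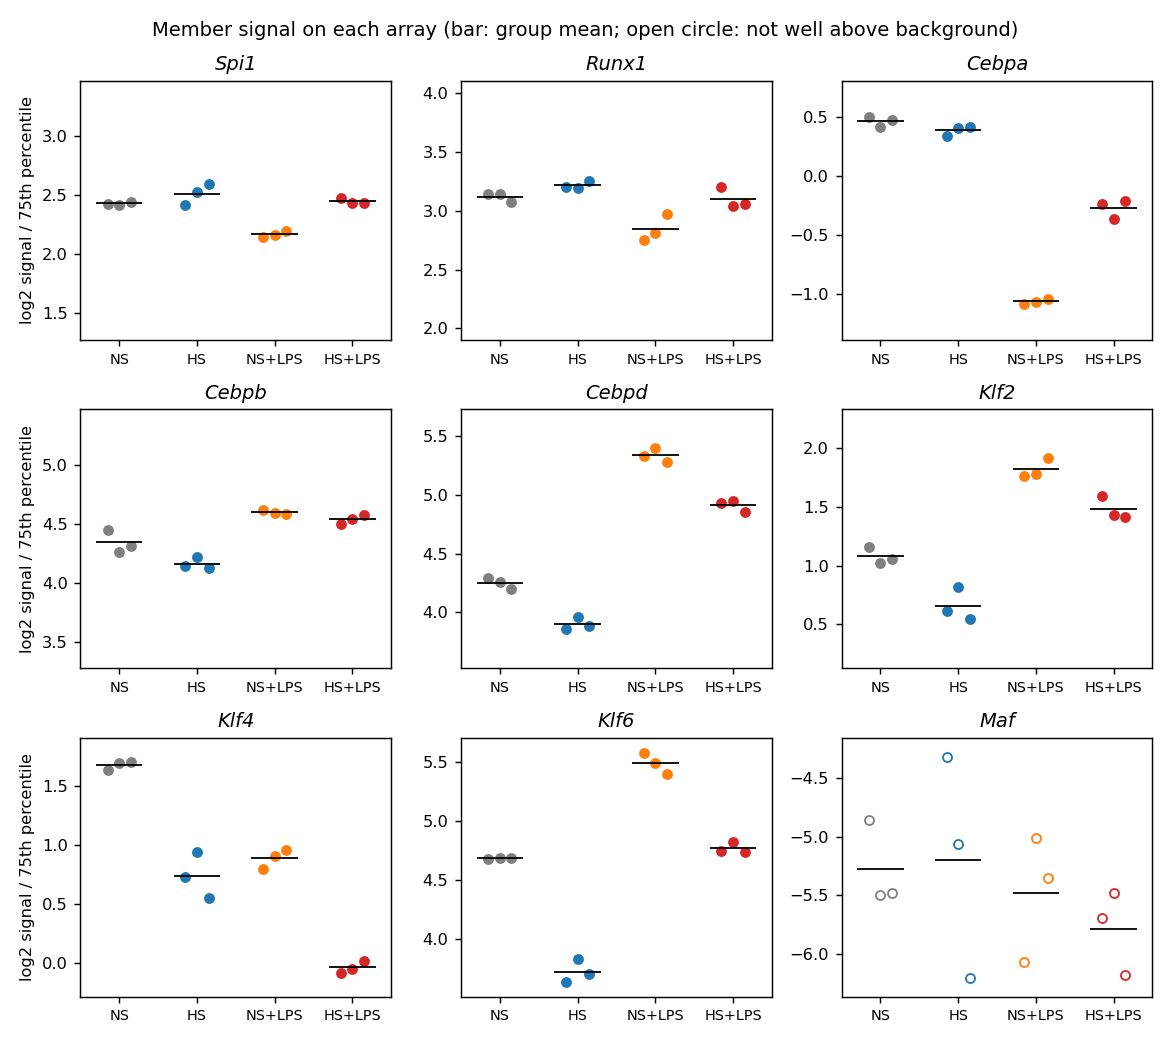
Relative signal (log2 of signal over the array's 75th percentile) of the 9 lineage factors on each of the 12 arrays by group, with a bar at the group mean and open circles for values not well above background; each panel has its own axis. Klf4 and Klf6 stand lower in both groups with added NaCl than in the matching groups without it, Cebpa is lowest in NS+LPS, and the circles of Maf are open on every array.

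Spi1 encodes the ETS family pioneer factor PU.1 and changed little. Its relative signal was 5.38, 5.33 and 5.45 in NS, 5.34, 5.75 and 6.02 in HS, 4.43, 4.48 and 4.58 in NS+LPS, and 5.56, 5.41 and 5.39 in HS+LPS. The NS+LPS arrays were below all others, and the arrays of the other 3 groups overlapped. LPS without added NaCl lowered Spi1 by 1.2-fold (log2 -0.26, SE 0.045, limma adjusted p = 0.00043). In the presence of LPS, added NaCl raised it by 1.21-fold (0.28, SE 0.045, limma adjusted p = 0.000467). NaCl alone gave 0.081 (95% interval -0.019 to 0.18, limma adjusted p = 0.186), and without HS replicate 1 this became a call at 0.13 (limma adjusted p = 0.0346). LPS with added NaCl gave -0.064 (95% interval -0.16 to 0.036, limma adjusted p = 0.22), which became a call at -0.11 (limma adjusted p = 0.0318) without the same array. The 1.27-fold span from its lowest to its highest group mean was the narrowest of the 8. The Spi1 probe, listed under the older symbol Sfpi1, lies on chromosome 2 of mm9 between 90939665 and 90953452, a span of 13788 bases for 1 probe.

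Runx1, the DNA-binding subunit of core binding factor, gave different answers on its 2 probes, above all in the size of its fall with LPS. On the brighter probe, which stands for the gene, the relative signal was 8.83, 8.85 and 8.4 in NS, 9.22, 9.14 and 9.51 in HS, 6.75, 7.02 and 7.84 in NS+LPS and 9.23, 8.21 and 8.33 in HS+LPS. NS+LPS was again below every other array. The fall with LPS was 1.21-fold (-0.27, SE 0.063, limma adjusted p = 0.00318), and NaCl in the presence of LPS gave a rise of 1.19-fold (0.25, SE 0.063, limma adjusted p = 0.00636). On the dimmer probe the relative signal was 1.04, 0.969 and 0.96 in NS, 0.936, 0.908 and 0.867 in HS, 0.208, 0.281 and 0.235 in NS+LPS and 0.3, 0.272 and 0.284 in HS+LPS. All 6 arrays with LPS lay far below the 6 without it. In the fit over probes this was a log2 difference of -2.05 (SE 0.094, limma adjusted p = 1.95e-08) without added NaCl and -1.66 (SE 0.094, limma adjusted p = 8.86e-08) with it. The log2 signal of the dimmer minus that of the brighter probe ran from -3.46 to -3.08 on arrays without LPS and from -5.06 to -4.65 with it, lower in 6 of 6, a mean shift of -1.66, given as a description. A gap between probes as large as that of Runx1 for LPS without added NaCl, 1.78, was found in 120 of 3996 genes with several passing probes (3%), where the median gap was 0.28. The dimmer probe lies on chromosome 16 of mm9 at 92604413 to 92604472 and the brighter at 92605785 to 92605844, both listed in descending order, and their exon or isoform was not determined here. With the mean of both probes, the LPS effect on Runx1 was -1.16 without and -0.89 (a call) with added NaCl, where the brighter probe alone gave -0.12 (95% interval -0.26 to 0.026, limma adjusted p = 0.125); without HS+LPS replicate 1 this too was a call (-0.17, limma adjusted p = 0.0385). NaCl alone gave 0.096 (95% interval -0.045 to 0.24, limma adjusted p = 0.265) on the brighter probe and -0.13 (limma adjusted p = 0.307) on the dimmer. With NaCl under LPS the dimmer probe rose by 0.25 (SE 0.094, limma adjusted p = 0.0424), as the brighter did. The interaction of NaCl and LPS was 0.39 on the dimmer probe (SE 0.13, limma adjusted p = 0.0473).

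**Figure D2:**
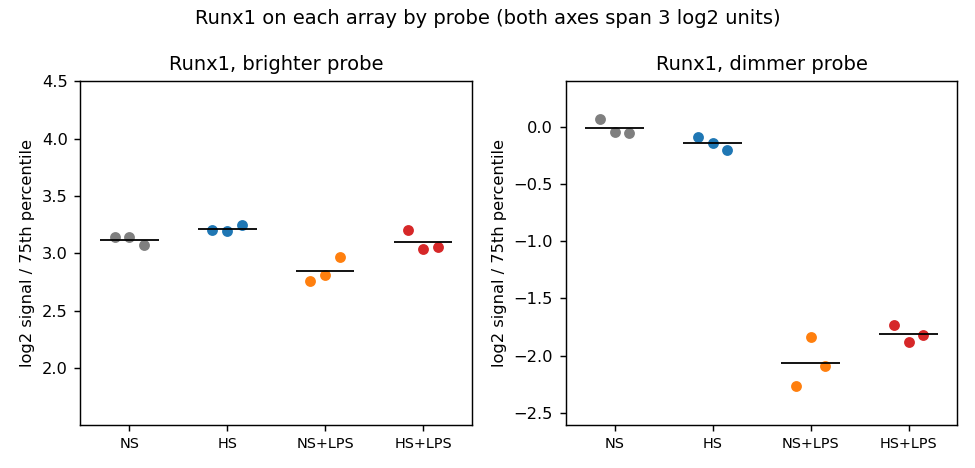
Relative signal (log2 of signal over the array's 75th percentile) of the brighter and the dimmer Runx1 probe on each array by group, with bars at group means, both axes spanning the same range. The dimmer probe separates the arrays with LPS from those without by -2.05 (no added NaCl) and -1.66 (added NaCl), while the brighter probe moves by -0.27 and -0.12.

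Cebpa, the C/EBP gene most tied to myeloid commitment, was the lineage factor LPS moved most without added NaCl when each gene is read from its brightest probe. Its relative signal was 1.41, 1.33 and 1.39 in NS, 1.26, 1.33 and 1.34 in HS, 0.472, 0.477 and 0.484 in NS+LPS and 0.848, 0.777 and 0.865 in HS+LPS. NS and HS overlapped, HS+LPS lay below both, and NS+LPS lay lowest with 3 arrays close together. LPS lowered Cebpa by 2.89-fold without added NaCl (-1.53, SE 0.047, limma adjusted p = 1e-09), and 5.74% of all genes differed by at least as much. With added NaCl the fall was 1.58-fold (-0.66, SE 0.047, limma adjusted p = 5.23e-07). Under LPS, the cells with added NaCl had 1.74-fold more Cebpa RNA (0.80, SE 0.047, limma adjusted p = 7.19e-07), whereas NaCl alone gave -0.076 (95% interval -0.18 to 0.029, limma adjusted p = 0.238).

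Cebpb and Cebpd, the inflammatory C/EBP genes, moved the opposite way with LPS. Cebpb had a relative signal of 21.9, 19.2 and 20 in NS, 17.7, 18.7 and 17.5 in HS, 24.6, 24.2 and 24 in NS+LPS and 22.6, 23.4 and 23.9 in HS+LPS. Its 4 groups did not overlap, yet the span of their means was only 1.35-fold. LPS raised Cebpb by 1.19-fold without (0.25, SE 0.052, limma adjusted p = 0.00136) and 1.3-fold with added NaCl (0.38, SE 0.052, limma adjusted p = 7.44e-05). NaCl alone lowered it by 1.13-fold (-0.18, SE 0.052, limma adjusted p = 0.0192), a call lost without the filter on dim probes (limma adjusted p = 0.0549), with only the groups compared (0.0718), or without NS replicate 1 (-0.13, 0.0507), HS replicate 1 (-0.17, 0.0543) or HS replicate 3 (-0.16, 0.0707). Under LPS the NaCl difference was -0.060 (95% interval -0.18 to 0.054, limma adjusted p = 0.337), and a call of -0.13 (0.0435) after normexp background correction.

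Cebpd, known to be induced by inflammatory signals, had a wider range. Its relative signal was 19.6, 19.2 and 18.3 in NS, 14.5, 15.6 and 14.8 in HS, 40.2, 42 and 38.9 in NS+LPS and 30.4, 30.8 and 28.9 in HS+LPS. Each group was separate, and both groups with LPS lay above both without it. The rise was 2.12-fold without (1.09, SE 0.048, limma adjusted p = 1.3e-08) and 2.01-fold with added NaCl (1.01, SE 0.048, limma adjusted p = 2.19e-08). NaCl lowered Cebpd by 1.27-fold without (-0.35, SE 0.048, limma adjusted p = 0.000324) and 1.34-fold with LPS (-0.43, SE 0.048, limma adjusted p = 4.4e-05).

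Klf2, Klf4 and Klf6 were each lower with added NaCl, both with and without LPS. Klf2, a zinc-finger factor of quiescent myeloid and endothelial cells, had a relative signal of 2.23, 2.03 and 2.08 in NS, 1.53, 1.77 and 1.46 in HS, 3.39, 3.44 and 3.76 in NS+LPS and 3.02, 2.7 and 2.66 in HS+LPS. The groups were separate, with the LPS groups on top. NaCl lowered Klf2 by 1.34-fold without (-0.42, SE 0.080, limma adjusted p = 0.00249) and 1.26-fold with LPS (-0.34, SE 0.080, limma adjusted p = 0.00497). LPS raised it by 1.67-fold without (0.74, SE 0.080, limma adjusted p = 1.53e-05) and 1.77-fold with added NaCl (0.82, SE 0.080, limma adjusted p = 5.66e-06).

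Klf4, known as an inducer of monocyte differentiation and of alternative activation, fell with either agent. Its relative signal was 3.12, 3.24 and 3.26 in NS, 1.66, 1.92 and 1.47 in HS, 1.74, 1.88 and 1.95 in NS+LPS and 0.944, 0.967 and 1.01 in HS+LPS. HS and NS+LPS overlapped, NS stood above both and HS+LPS below both. NaCl lowered Klf4 by 1.92-fold without (-0.94, SE 0.086, limma adjusted p = 2.66e-05) and 1.9-fold with LPS (-0.93, SE 0.086, limma adjusted p = 1.2e-05). LPS lowered it by 1.73-fold without (-0.79, SE 0.086, limma adjusted p = 1.48e-05) and 1.72-fold with added NaCl (-0.78, SE 0.086, limma adjusted p = 1.39e-05). The interaction, the effect of NaCl with LPS minus that without, was 0.012 (95% interval -0.26 to 0.28, limma adjusted p = 0.948), so a departure from adding up on the log2 scale was not detected within that interval.

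Klf6, an immediate early zinc-finger factor that cooperates with NF-kB, also fell with NaCl but rose with LPS. Its relative signal was 25.6, 25.8 and 25.7 in NS, 12.4, 14.2 and 13 in HS, 47.8, 45.1 and 42.2 in NS+LPS and 26.9, 28.2 and 26.7 in HS+LPS. The groups did not overlap, though HS+LPS came back close to NS. NaCl lowered Klf6 by 1.95-fold without (-0.96, SE 0.059, limma adjusted p = 2.94e-06) and 1.65-fold with LPS (-0.72, SE 0.059, limma adjusted p = 5.31e-06). LPS raised it by 1.75-fold without (0.81, SE 0.059, limma adjusted p = 7.09e-07) and 2.06-fold with added NaCl (1.05, SE 0.059, limma adjusted p = 8.48e-08). Of all genes tested, 2.98% differed at least as much as Klf6 and 3.16% at least as much as Klf4 between HS and NS.

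Maf, which encodes c-MAF, was not well above background on any of the 12 arrays on either of its 2 probes. Its relative signals ran from 0.00982 to 0.0499, where the lowest signal of any probe well above background was 0.0377 to 0.0636 by array. No fold is given.

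**Figure D3:**
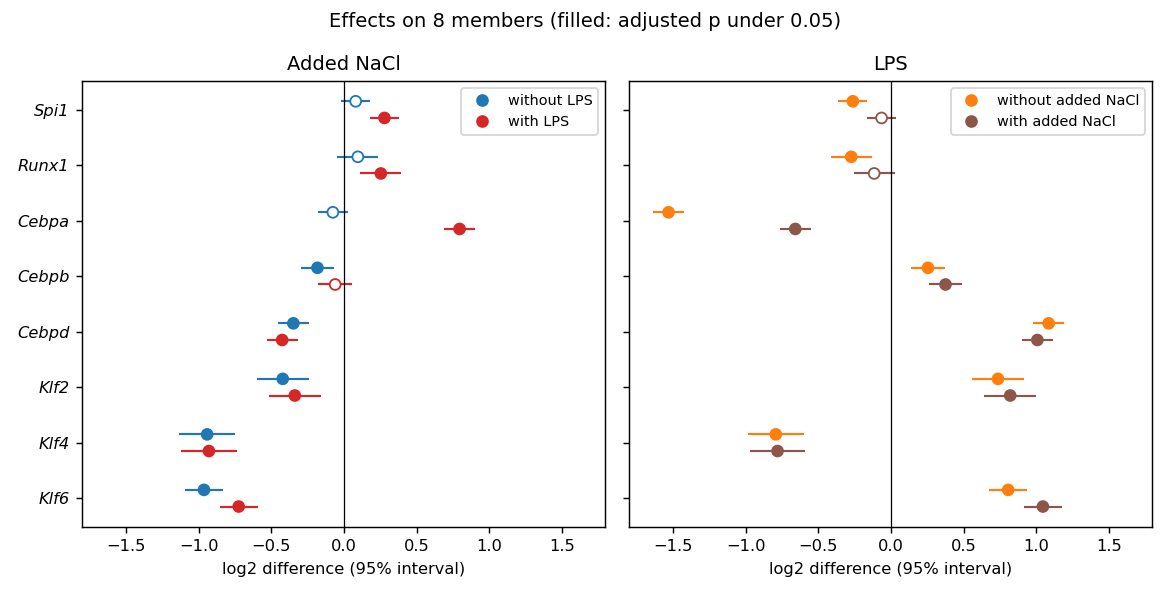
Log2 differences with 95% intervals from limma for the 8 lineage factors that passed the filter, for added NaCl (left) without and with LPS and for LPS (right) without and with added NaCl; filled points were called at an adjusted p under 0.05. Klf2, Klf4, Klf6 and Cebpd lie below 0 for NaCl in both settings, and Cebpa has its NaCl effect at -0.076 without LPS and 0.80 with it.

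Whether the NaCl effect depended on LPS was tested by the interaction. It was called for 3 of the 8, each higher, against 36.2% of all genes (17.4% higher and 18.8% lower; 48% of the called genes were higher here, 58.1% with quantile normalization and 58.2% with the deposited values). Cebpa had 0.87 (SE 0.067, limma adjusted p = 1.75e-05) and kept its call under each of the 19 alternatives run. Klf6 had 0.24 (SE 0.083, limma adjusted p = 0.0474) and Spi1 0.20 (SE 0.063, limma adjusted p = 0.0337), and each lost its call in 13 of those 19, with adjusted p up to 0.142 for Klf6 and 0.0954 for Spi1. When single arrays were left out, the Klf6 call held only without HS replicate 2 or NS+LPS replicate 1, and the Spi1 call only without HS replicate 3 or NS+LPS replicate 3. Cebpb (0.12, 95% interval -0.041 to 0.28), Cebpd (-0.078, -0.23 to 0.072), Klf2 (0.083, -0.17 to 0.34) and Runx1 (0.16, -0.041 to 0.36) were not called. With the mean of its probes Runx1 was (0.27, limma adjusted p = 0.0441).

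The order of the 4 groups fell into a few forms. Runx1 was read from its brighter probe for these orders, spans and likenesses, except where the dimmer probe is named. Cebpb, Cebpd, Klf2 and Klf6 ran, from low to high, HS, NS, HS+LPS and NS+LPS, with no overlap between neighbours. Cebpa ran NS+LPS, HS+LPS, HS and NS, Runx1 NS+LPS, HS+LPS, NS and HS, and Spi1 NS+LPS, NS, HS+LPS and HS, where HS and NS overlapped for Cebpa, HS+LPS and NS for Runx1, and the upper 3 groups for Spi1. From the lowest to the highest group mean the span was 3.41-fold for Klf6, 3.3-fold for Klf4, 2.89-fold for Cebpa, 2.7-fold for Cebpd, 2.23-fold for Klf2 and 1.29-fold for Runx1. The dimmer Runx1 probe spanned more and ran NS+LPS, HS+LPS, HS and NS, with mean relative signals of 0.241, 0.286, 0.904 and 0.991. The genes most like each in their pattern over the 12 arrays were found by the root mean square difference of centred log2 values. They were Fgr, a Src-family kinase of myeloid cells, for Klf4 (0.12), Atp6v0d2, a subunit of the proton pump, for Klf6 (0.083), and Asns, asparagine synthetase, for Klf2 (0.088). For Cebpa it was Tmem51 (0.066), for Cebpb Serpinb6a (0.036), for Cebpd Arl14ep (0.058), for Spi1 the kinase gene Akt1 (0.032) and for Runx1 Phactr4 (0.045). Next came Oscp1 (0.13), Lst1 (0.11), Gk5 (0.093), Morn5 (0.075), Mccc1 (0.038), Itga6 (0.061), Setmar (0.041) and Arhgef1 (0.045), in the same order of lineage factors. The SD of the lineage factor itself over the arrays was 0.14 for Spi1, 0.15 for Runx1, 0.18 for Cebpb and 0.44 to 0.63 for the other 5. These likenesses are descriptions over 12 arrays of 4 groups.

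Relatives and partners of the lineage factors were taken from lists of 142 genes in 10 groups, of which 111 were tested. Their counts are to be read against all genes tested, of which 18.3% were called higher and 18.9% lower with NaCl alone, 26.2 and 31.4% with NaCl under LPS, 28.7 and 35.2% with LPS alone, and 30.5 and 41.8% with LPS under NaCl. Among C/EBP relatives and partners, 1 of 10 was higher and 6 lower with NaCl alone (median -0.26 against 0.017 for all genes), and 7 higher and 2 lower with LPS alone (median 0.56 against -0.034). Ddit3, the stress-induced C/EBP relative CHOP, fell with NaCl (-1.07, SE 0.080, limma adjusted p = 8.38e-06) and rose with LPS (2.25, SE 0.080, limma adjusted p = 2.7e-09). Cebpg, which lacks a classical activation domain, fell with NaCl (-0.47) and rose with LPS (0.70). Batf and Nfil3, basic leucine zipper factors, rose with LPS by 1.99 and 1.49, and Dbp fell with LPS (-1.13 without and -1.07 with added NaCl). Trib1, a pseudokinase that brings C/EBPα to its ubiquitin ligase, fell with NaCl (-0.29 without and -0.49 with LPS) and rose with LPS (1.42 without and 1.22 with NaCl). The adjusted p of the 4 Trib1 differences lay between 6.36e-09 and 0.00292 in limma's test.

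Of the other Krüppel-like and SP factors, with NaCl alone 1 of 11 was higher and 4 lower (median -0.0067), with NaCl under LPS 0 and 4, and with LPS 2 higher and 6 lower without and 2 and 8 with added NaCl. Klf3 (-0.46 without and -0.30 with LPS), Klf10 (-0.37 and -0.57) and Klf13 (-0.27 and -0.22) fell with NaCl in both settings. Klf7 rose with LPS (0.89), and Sp1 (-0.60) and Sp2 (-0.63) fell. Of MAF, BACH and NFE2 factors 0 of 8 were higher and 3 lower with NaCl alone (37.1% of all genes were called in either direction), 1 and 5 with NaCl under LPS (57.5%), 4 and 3 with LPS alone and 4 and 4 with LPS under NaCl. The small MAF gene Maff fell with NaCl alone (-0.59), rose with NaCl under LPS (0.40) and rose with LPS (1.36), and Nfe2l1 rose with LPS (1.09).

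ETS and IRF factors, which include partners of PU.1, were called 2 higher and 3 lower of 12 with NaCl alone, 4 and 3 with NaCl under LPS, and 5 and 5 with LPS in either setting, beside 37.1, 57.5, 63.8 and 72.3% of all genes called in either direction. Ets2 rose with NaCl (0.75) and with LPS (1.39), and Irf4 fell with each (-0.55 and -0.63). Irf8, a PU.1 partner needed for monocyte development, fell with NaCl (-0.33 without and -0.18 with LPS) and rose with LPS (0.31 and 0.46). Fli1, another ETS gene, fell with LPS (-1.27). Of 6 RUNX and CBF genes, 1 was higher and 0 lower with NaCl alone, 2 and 3 with NaCl under LPS, 1 and 4 with LPS alone, and 0 and 5 with LPS under NaCl. Cbfb, the partner subunit of RUNX1, fell with LPS (-0.68 without and -0.81 with NaCl) and had -0.060 with NaCl alone (limma adjusted p = 0.319). Cbfa2t3, a corepressor gene, was not well above background on any LPS array and was at least 15.5-fold lower with LPS without NaCl and at least 20-fold lower with it. Its call higher with NaCl under LPS (1.46), counted above, therefore had neither group well above background. Among 19 other myeloid regulators 3 were higher and 14 lower with LPS alone (median -0.48). Gfi1, a repressor that opposes PU.1, rose with NaCl (1.37 without and 4.06 with LPS), Tfeb, a regulator of lysosome genes, fell with LPS (-1.50), and Myc rose with it (4.57).

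**Figure D4:**
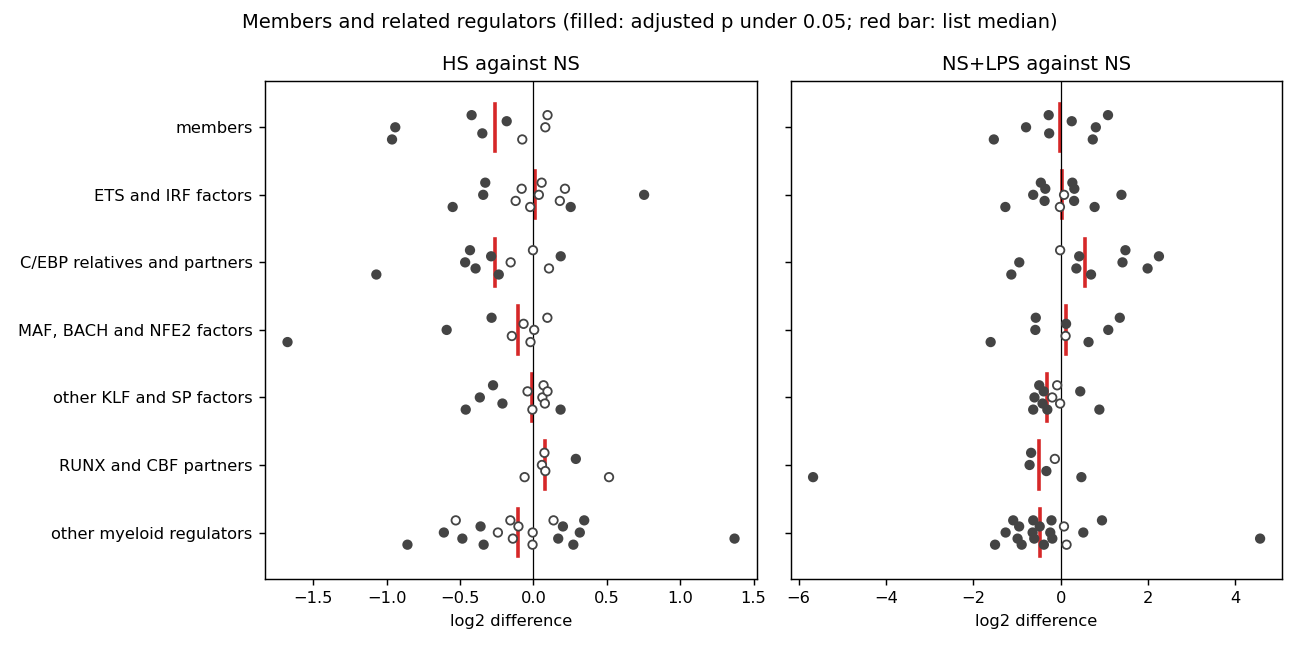
Log2 differences from limma for the 8 lineage factors and for related regulators by list, for NaCl alone (left) and LPS alone (right), with filled points called at an adjusted p under 0.05 and a red bar at each list's median; the panels have different scales. The medians of the lineage factors and of the C/EBP relatives are both -0.26 for NaCl alone, and the lowest point on the right is Cbfa2t3, whose fitted value rests on NS+LPS signals not above background.

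Of 29 genes with known PU.1, C/EBP or RUNX1 sites that mark macrophages, 4 were higher and 16 lower with NaCl alone (18.3 and 18.9% of all genes), and 6 and 16 with NaCl under LPS (26.2 and 31.4%). The median was -0.25 and -0.17, beside 0.017 and -0.043 for all genes. Aif1, an actin-binding protein of macrophages (-1.60), the Fcγ receptor gene Fcgr3 (-0.92) and the Src-family kinase Fgr (-0.78) were among those that fell without LPS. Csf1r, the receptor of macrophage colony stimulating factor, had 0.21 with NaCl alone (limma adjusted p = 0.0524), rose with NaCl under LPS (0.60), fell with LPS alone (-0.37) and had 0.025 with LPS under NaCl (limma adjusted p = 0.778). Its interaction was 0.40 (SE 0.11, limma adjusted p = 0.0156). Itgam, which encodes CD11b, rose with NaCl (0.19) and LPS (0.56), as did Cd14, a co-receptor for LPS (0.37 and 1.02). Lyz2, the macrophage lysozyme gene, had -0.048 with NaCl alone (limma adjusted p = 0.683) and rose with LPS (0.38). With LPS alone 15 of the 29 were higher and 9 lower, led by the scavenger receptor Msr1 (2.18) and the Fcγ receptor Fcgr1 (2.06).

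Of 11 listed targets tied to inflammatory C/EBP activity, 9 passed the filter on dim probes. LPS raised 9 of these without and 8 with added NaCl, beside 28.7 and 30.5% of all genes called higher. No NS array measured the cytokine genes Csf3, Il6 and Il1b well above background, and with LPS they were at least 363-fold, 171-fold and 66-fold higher. Such genes passed the filter through groups where they were high, so the counts with LPS are a description and not a test. With NaCl under LPS 3 of the 9 were higher and 5 lower: Il6 (-3.51), the siderophore-binding Lcn2 (-2.45) and Il1b (-2.35) fell, and Nos2, the inducible nitric oxide synthase, rose (2.64). With NaCl alone Cd14 rose (0.37), the acute phase gene Saa3 fell (-0.49), and the remaining call, Il1b, had neither group well above background. Of the 4 tested targets of Krüppel-like factors, 0 were higher and 2 lower with NaCl alone, 1 and 1 with NaCl under LPS, and 3 and 1 with LPS in either setting. The integrin gene Itgb7 was called in each of these, at -0.87 and -0.85 for NaCl and 1.13 and 1.15 for LPS without and with the other agent. Cdkn1a, which encodes the cell cycle inhibitor p21, had -0.12 with NaCl alone (limma adjusted p = 0.0647), rose with NaCl under LPS (0.91), where Klf2, Klf4 and Klf6 fell, and rose with LPS (0.87 without and 1.90 with NaCl). Nos3, the endothelial nitric oxide synthase, rose with LPS (0.66 and 0.69). S1pr1, a lipid receptor known as a KLF2 target, fell with NaCl alone (-1.76, SE 0.33) and with LPS (-5.61, SE 0.33, with 2 of 3 NS+LPS arrays well above background), where Klf2 rose. Among 4 tested MAF targets, 1 was higher and 2 lower with NaCl alone, 2 and 1 with NaCl under LPS, 1 and 1 with LPS alone and 2 and 1 with LPS under NaCl. Stab1, a scavenger receptor, fell with NaCl (-1.31 without and -0.34 with LPS). Hmox1, heme oxygenase 1, fell with NaCl alone (-0.34), rose with NaCl under LPS (0.97) and rose with LPS (1.93 without and 3.24 with NaCl). Gas6, which bridges dying cells to phagocytes, rose with NaCl (0.56 without and 1.86 with LPS) and fell with LPS (-3.57). The lists were made from textbook knowledge of factor targets, with earlier results of these data known, and binding was not measured.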

How the data were processed

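RNA of 12 samples was hybridised to 1-colour arrays. Per the file headers, scanner values are intensity, linear, background subtracted within the array by Agilent Feature Extraction 10.7.3.1, and the flags for outliers and background are 0 or 1 per spot. The deposited value table holds linear intensity too, ranked as the scanner values are (Spearman 0.99996 or more); its normalization is not given in the sources used here. The log2 signal minus the array's 75th percentile was computed, outlier spots were left out and spots of a probe averaged. A probe was kept if some group had it well above background on its 3 arrays, and the brightest stood for a gene (13834 genes). An "at least" fold was taken against the lowest signal well above background. Group means were fitted with limma 3.58.1 in R 4.3.3 (checked on simulated data) and adjusted by Benjamini-Hochberg. Probe coordinates are mm9, as the files give them. Promoters are from RefSeq (GRCm38.p6). The lineage factors and gene lists were chosen with earlier results of these data known. Named genes are the lineage factors, 8 index genes, up to 4 called genes with the largest differences per list and comparison, and the 2 nearest patterns per lineage factor; genes named again in another comparison were already named by this rule, and results for some genes it names are not reported here. Precision is limited by the 3 arrays per group.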

Additional observations from a re-analysis of the deposited data

Results flagged for a closer look

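In 3 of 8 lineage factors the effect of NaCl with LPS differed from that without LPS by limma's interaction test, where 36.2% of all genes were called. The differences were 0.87 for Cebpa, 0.24 for Klf6 and 0.20 for Spi1 on the log2 scale (adjusted p = 1.75e-05, 0.0474 and 0.0337 in limma). Klf6 and Spi1 each lost the call in 13 of 19 alternatives, and Cebpa kept it in all 19. For Cebpa the difference between groups came with a NaCl effect of -0.076 without and 0.80 with LPS. The HS+LPS arrays were on their own slide and scanned on a later day, which cannot be told apart from the interaction.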

How the results depend on the processing

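Of 824 values of lineage factors under the alternatives, 779 kept their direction and side of the threshold, 31 lost a call, 6 gained one and 8 turned sign. The number of lineage factors with a called interaction, 3, became 1 with normexp, 1 without the filter, 1 with the replicate block, 1 to 2 when an array was left out, and 4 with the mean of a gene's probes, where Runx1 gained a call (0.27, limma adjusted p = 0.0441). With the replicate block Klf6 had 0.24 (limma adjusted p = 0.0561) and Spi1 0.20 (0.0509), and the block changed no other call of a lineage factor. Deviations of same-numbered replicates correlated at -0.21 to 0.13 (1 of 18 pairs over 0.1), and no pairing by number was detected. The values that turned sign were not called: Runx1 for NaCl alone (-0.019, mean of probes), and the interactions of Klf2 (-0.017, normexp), Cebpd (0.028 with quantile normalization, 0.013 with the value table) and Klf4 (-0.00063, -0.083, -0.035 and -0.015 without NS replicate 3, HS replicate 3, NS+LPS replicate 1 and HS+LPS replicate 3, in a range up to 0.11). The cause was not tested. On the slide shared by NS, HS and 2 NS+LPS arrays alone, 5 lineage factors were lower with NaCl, and 4 higher and 4 lower with LPS. In that setting 35.1% of all genes were called with NaCl and 60.4% with LPS. Without the filter, the median of all genes was 0.11 for NaCl alone and 0.16 for LPS alone.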
